A study of Mus musculus with 6 samples.

Results

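The CXC chemokines described here are 7 genes, Cxcl1, Cxcl2, Cxcl9, Cxcl10, Cxcl12, Cxcl14 and Cxcl16, chosen by symbol. All 7 were found among the 24411 genes of the deposited count table, and 6 of them passed the filter on low counts that left 13403 genes to test. Cxcl9 did not pass. RNA was sequenced from microglia, the brain's resident macrophages, isolated from 8-week-old C57BL/6J mice. There were 3 libraries from Mir137 knockout mice (gKO) and 3 from Mir137 wild-type mice (gWT), with no treatment given in the labels for either group. Mir137 encodes the microRNA miR-137. The sources used here do not describe the allele, the cell sort or whether animals were pooled. The design text mentions 4 mice without tying them to libraries, and no label names a separate animal for each library. The p-values here therefore measure only how far these libraries spread, and that spread may be technical. The comparison asks how the chemokine transcripts of microglia differ when this microRNA is missing.

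CXC chemokines are small secreted proteins that guide leukocytes along concentration gradients by binding G protein-coupled receptors, and they are named for a single residue between their first cysteines. Members with a glutamate-leucine-arginine motif ahead of those cysteines, here Cxcl1 and Cxcl2, attract neutrophils through Cxcr2 and are induced by NF-kB when macrophages meet inflammatory signals. Cxcl9 and Cxcl10 are induced by interferons, Cxcl10 by NF-kB as well, and attract activated T cells through Cxcr3. Cxcl12 is made constitutively by vascular, stromal and meningeal cells of the brain and signals through Cxcr4 and Ackr3, Cxcl14 is a constitutive epithelial and stromal chemokine, and Cxcl16 is a membrane-bound ligand of Cxcr6 that macrophages and endothelial cells carry and that ADAM proteases shed.

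The stretch of 250 bases before the RefSeq transcript start (GRCm38.p6) is shown for the 3 genes with the highest fold changes, because all 3 were highest in the same gKO library, and for Cxcl12, which was lower in every gKO library than in any gWT library. Capitals mark matches to any of 3 motifs searched on both strands: the NF-kB consensus, the interferon-response pair (GAAA and GAAA with 2 bases between), and the AP-1 site TGANTCA. Each is written 5′ to 3′ on the gene's own strand.
Cxcl1, chr5:90890995-90891244, plus strand: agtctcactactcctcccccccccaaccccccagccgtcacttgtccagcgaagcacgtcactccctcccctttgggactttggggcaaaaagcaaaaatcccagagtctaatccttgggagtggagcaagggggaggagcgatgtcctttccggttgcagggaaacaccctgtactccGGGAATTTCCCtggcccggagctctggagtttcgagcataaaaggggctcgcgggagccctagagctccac
Cxcl2, chr5:90903649-90903898, plus strand: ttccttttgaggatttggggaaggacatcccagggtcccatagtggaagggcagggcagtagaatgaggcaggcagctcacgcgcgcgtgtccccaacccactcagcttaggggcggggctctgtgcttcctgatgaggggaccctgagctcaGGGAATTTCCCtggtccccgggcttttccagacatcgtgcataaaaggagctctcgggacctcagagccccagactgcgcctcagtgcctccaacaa
Cxcl10, chr5:92348890-92349139, minus strand: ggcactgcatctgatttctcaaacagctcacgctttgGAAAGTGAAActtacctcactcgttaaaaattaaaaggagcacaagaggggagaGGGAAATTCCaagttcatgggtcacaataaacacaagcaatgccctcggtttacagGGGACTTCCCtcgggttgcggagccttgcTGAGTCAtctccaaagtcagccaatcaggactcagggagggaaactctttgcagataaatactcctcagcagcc
Cxcl12, chr6:117168285-117168534, plus strand: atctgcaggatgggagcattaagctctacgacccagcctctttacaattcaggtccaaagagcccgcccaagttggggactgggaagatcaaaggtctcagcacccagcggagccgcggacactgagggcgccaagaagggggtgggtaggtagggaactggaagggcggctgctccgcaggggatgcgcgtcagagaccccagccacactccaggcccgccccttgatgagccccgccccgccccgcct

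Cxcl1 and Cxcl2 carried the same 11 bases, GGGAATTTCCC, which match the NF-kB consensus on both strands in overlapping positions, from base -71 to -61 in Cxcl1 and from -97 to -87 in Cxcl2 (the base before the start being -1). Cxcl10 held NF-kB matches at -159 to -150 and at -103 to -94, the interferon-response pair at -213 to -204, and an AP-1 match at -74 to -68. In Cxcl9 and Cxcl12 these letters were not in the window for any of the 3 motifs, and Cxcl14 had only an interferon-response pair, at -172 to -163. Among all 32851 promoters of this length in the table, 3.90% held the NF-kB consensus, 2.98% the interferon-response pair and 6.75% the AP-1 site. A match describes the sequence and is not evidence of binding in these cells. Cxcl16 was not among the promoters used here.

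**Figure D1:**
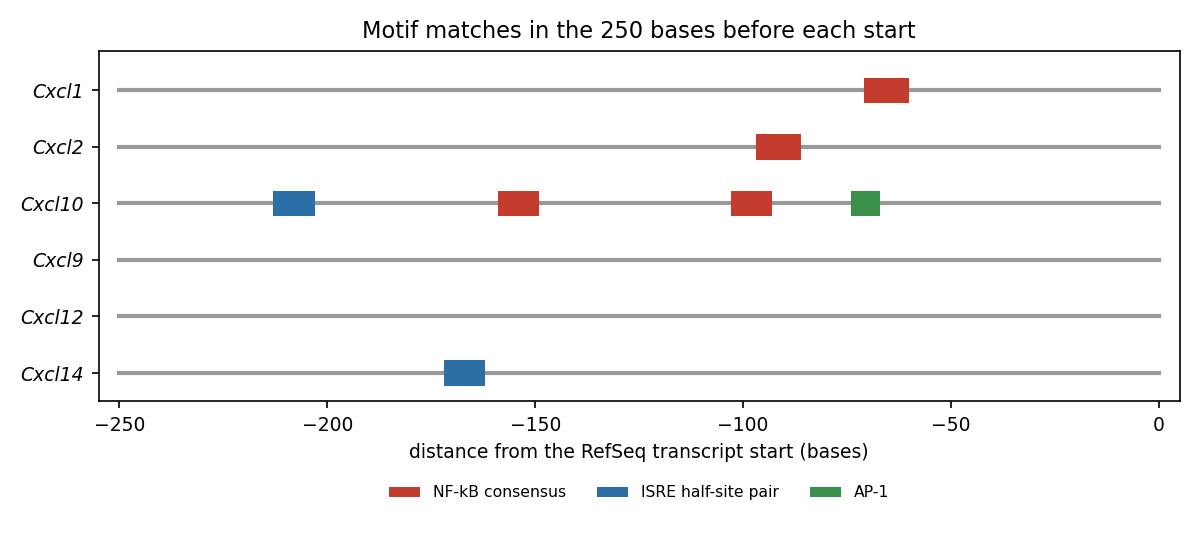
Positions of motif matches in the 250 bases before the transcript start of 6 CXC chemokine genes (x axis, bases from the start; each row a gene; coloured boxes the NF-kB consensus, the interferon-response pair labelled ISRE half-site pair, and the AP-1 site). Cxcl1 and Cxcl2 each have 1 NF-kB position and Cxcl10 has NF-kB, interferon-response and AP-1 matches, while Cxcl9 and Cxcl12 have none.

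The libraries held 14603884 to 17652976 counts. Mir137 itself had 0 counts in all 6 libraries, and since such libraries capture microRNA precursors poorly, this checks nothing about the labels. The 10 microglial markers summed to between 39720 and 42917 CPM (counts per 1e6 counts) in each library, so the labelled cell type was present throughout. gKO replicate 3 stood apart: its score on principal component 1 (39.0% of variance) was 91.5, and the scores of the rest ran from -37.7 to -3.45. Its deviations from the gene means fell with transcript length (Spearman correlation -0.43 across genes, which are not independent replicates), against -0.01 to 0.24 in the others. Many results below are given with and without it, and the rest include it.

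Of the 6 tested members, Cxcl2 and Cxcl10 rose in gKO, both several-fold, and none fell (adjusted p under 0.05 by the quasi-likelihood test of edgeR, with the Benjamini-Hochberg method over all genes tested). Over all 13403 genes, 0.395% were called higher and 0.231% lower. Cxcl1 was as far apart in its means as these but was not called, and Cxcl12 and Cxcl16 lay below wild type without being called. The libraries of the groups did not overlap for Cxcl1, Cxcl2 and Cxcl10, with gKO above, and for Cxcl12 and Cxcl16, with gKO below. In all, 10.0% of tested genes were separated with gKO above and 11.3% with gKO below.

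**Figure D2:**
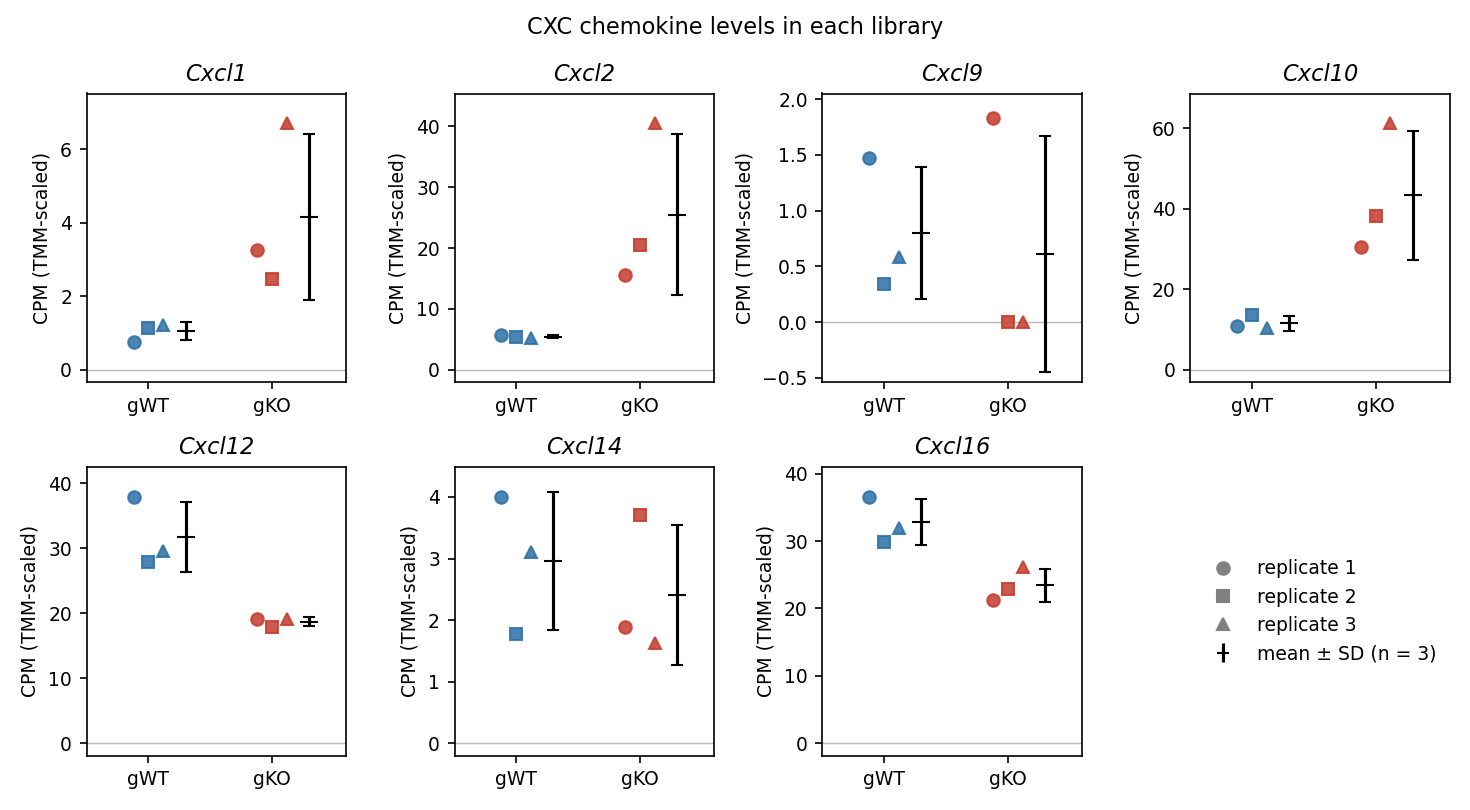
Level of each CXC chemokine in each library (y axis, CPM scaled by TMM; shape, replicate number; blue, gWT; red, gKO; black bar, mean ± SD of 3 libraries). gKO replicate 3 is the highest point for Cxcl1, Cxcl2 and Cxcl10, the gKO libraries lie below all gWT libraries for Cxcl12 and Cxcl16, and the groups overlap for Cxcl9 and Cxcl14.

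Cxcl2 (chromosome 5, 90903871 to 90905938, plus strand, GRCm38), a neutrophil attractant, was counted 271, 298 and 573 times in gKO replicates 1, 2 and 3, against 97, 95 and 88 in gWT. The corresponding levels were 15.5, 20.4 and 40.5 CPM against 5.72, 5.43 and 5.15 CPM. The 3 wild-type libraries were close to each other, every gKO library was well above them, and gKO replicate 3 was the highest by a wide margin. The log2 fold change was 2.23 (SE 0.37; 95% interval 1.39 to 3.07), with an edgeR adjusted p of 0.0437. Without gKO replicate 3 it was 1.71 (SE 0.25) with an edgeR adjusted p of 8.94e-04, so the estimate was smaller and its error smaller too. Without any other single library the edgeR adjusted p lay between 0.0803 and 0.320, and it was 0.0535 with upper-quartile scaling.

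Cxcl1 (chromosome 5, 90891241 to 90893115, plus strand), the other neutrophil attractant, lies 10.8 kb from Cxcl2. It was expressed at a much lower level, at 57, 36 and 95 counts in the gKO replicates against 13, 20 and 21 in wild type. In CPM these were 3.26, 2.47 and 6.72 against 0.766, 1.14 and 1.23. As for Cxcl2, all gKO libraries were above all gWT libraries and replicate 3 was the highest. The log2 fold change of 1.98 was close to that of Cxcl2 but less precise (SE 0.57; 95% interval 0.67 to 3.29), and the edgeR adjusted p was 0.235. Leaving out gKO replicate 3 gave 1.44 (SE 0.73, edgeR adjusted p = 0.259). The longest stretch that transcripts of Cxcl1 and Cxcl2 share exactly is 23 bases.

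Cxcl10 (chromosome 5, 92346638 to 92348889, minus strand), the T-cell attractant induced by interferon and NF-kB, reached 535, 557 and 867 counts in gKO, against 183, 239 and 176 in wild type. Its levels were 30.6, 38.2 and 61.3 CPM in gKO replicates 1, 2 and 3 against 10.8, 13.7 and 10.3 CPM in gWT. The lowest gKO library was above the highest gWT library, and replicate 3 was again the highest. The log2 fold change was 1.90 (SE 0.28; 95% interval 1.26 to 2.55; edgeR adjusted p = 0.0326). Without gKO replicate 3 it was 1.56 (SE 0.19; edgeR adjusted p = 2.13e-04), and without any other single library the edgeR adjusted p was 0.0757 to 0.297. Cxcl10 lies within Art3 on the opposite strand and shares 133 exonic bases with it. Art3 had 17 to 35 counts per library, and whether counting used strand is not given in the sources used here.

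Cxcl9 (chromosome 5, 92321347 to 92328079, minus strand), the other ligand of Cxcr3, lies 18.6 kb from Cxcl10 and did not share its pattern. Its counts were 32, 0 and 0 in gKO against 25, 6 and 10 in wild type, or 1.83, 0 and 0 CPM against 1.47, 0.343 and 0.586 CPM. A count of 0 allows up to 0.206 CPM in gKO replicate 2 and 0.212 CPM in replicate 3 (3 counts, counting error only). The groups overlapped, and 1 gKO library held all the gKO counts. Fitted without a low-count filter, its log2 fold change was -0.38 with an SE of 1.70 (edgeR adjusted p = 0.961). With counts this low and this uneven between libraries, no difference was detectable. Cxcl11, the remaining ligand of Cxcr3 and 10.7 kb beyond Cxcl10, had 0 counts in all libraries.

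**Figure D3:**
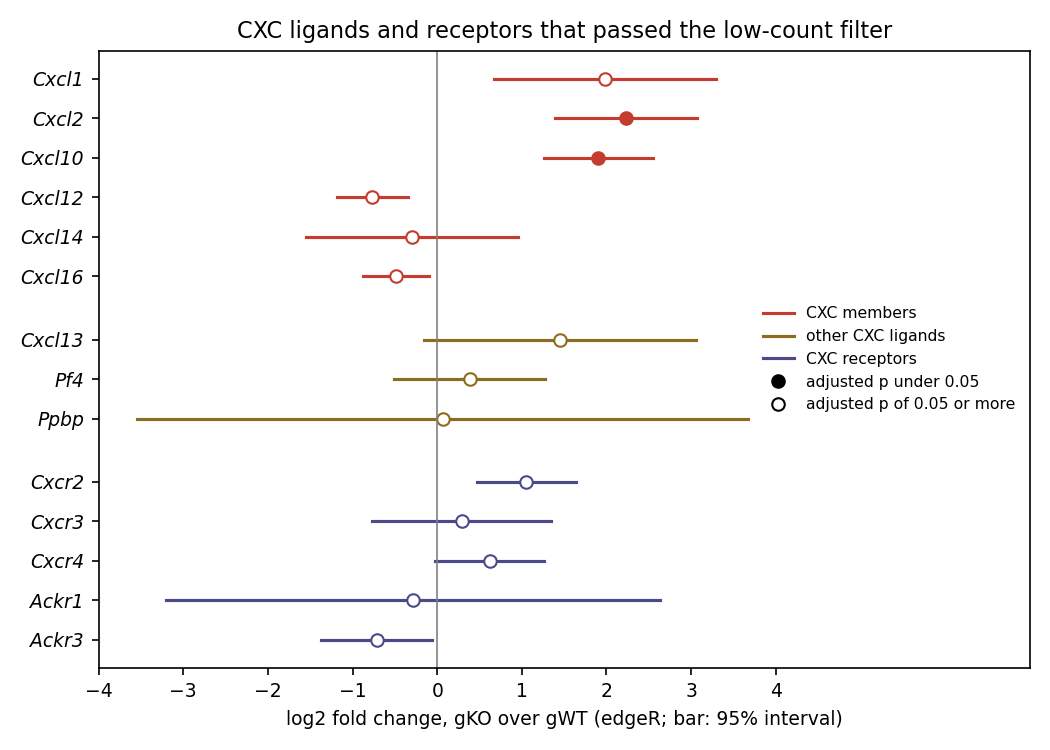
Log2 fold change of gKO over gWT for the CXC ligands and receptors that passed the low-count filter (x axis; bars, 95% interval; filled points, adjusted p under 0.05; n = 3 libraries per group). Only Cxcl2 and Cxcl10 are filled, and the intervals of Cxcl1, Cxcl12, Cxcl16, Cxcr2 and Ackr3 do not reach 0 although these genes were not called over all genes.

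Cxcl12 (chromosome 6, 117168535 to 117181367, plus strand), the constitutive ligand of Cxcr4, gave 334, 261 and 270 counts in gKO against 644, 488 and 505 in wild type. In CPM it was 19.1, 17.9 and 19.1 in gKO replicates 1, 2 and 3 against 37.9, 27.9 and 29.6 in gWT. The gKO libraries were nearly equal, replicate 3 included, and all lay below the lowest gWT library. The log2 fold change was -0.77 (SE 0.18; 95% interval -1.19 to -0.35), with an edgeR adjusted p of 0.161. It was called without gKO replicate 3 (log2 fold change -0.79 with SE 0.18; adjusted p of 0.0153 by edgeR) and by DESeq2 with all libraries (-0.77, adjusted p = 0.0300).

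Cxcl16 (chromosome 11, 70453983 to 70459984, minus strand), the membrane-bound ligand, gave 372, 334 and 370 expected counts in gKO against 621, 523 and 546 in wild type. It was at 21.3, 22.9 and 26.2 CPM in gKO and 36.6, 29.9 and 32.0 CPM in gWT, so the groups were separate by a small margin. The log2 fold change was -0.49 (SE 0.17; 95% interval -0.88 to -0.09; edgeR adjusted p = 0.349). With gKO replicate 3, the gKO library nearest to wild type, left out, it was -0.58 (SE 0.16) and passed the threshold with an edgeR adjusted p of 0.0396. Its annotation overlaps Zmynd15 on the opposite strand by 552 exonic bases, and Zmynd15 had 11 to 37.2 counts per library.

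Cxcl14 (chromosome 13, 56288643 to 56296551, minus strand) was low, at 33, 54 and 23 counts in gKO against 68, 31 and 53 in wild type, which is 1.89, 3.70 and 1.63 CPM against 4.01, 1.77 and 3.10 CPM. The groups overlapped. The 95% interval of its log2 fold change of -0.30 (SE 0.55) ran from -1.55 to 0.96, with an adjusted p of 0.898 by edgeR, so a change in either direction remained possible. Without gKO replicate 3 the log2 fold change was -0.097 (SE 0.575).

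Without gKO replicate 3, then, edgeR called Cxcl2 and Cxcl10 higher and Cxcl12 and Cxcl16 lower, where 3.99% of 13814 genes were higher and 3.82% lower. DESeq2 with all libraries called Cxcl2 and Cxcl10 higher and Cxcl12 lower, where 1.20% of 14947 genes were higher and 1.57% lower. The authors' deposited table of genes higher in gKO, which lists 75 genes, holds Cxcl2 (log2 fold change 2.23, adjusted p = 2.98e-06), Cxcl10 (1.91, adjusted p = 2.28e-07) and Cxcl1 (1.99, adjusted p = 0.0488). Cxcl1 sits at the edge of that list: DESeq2 run here on the same counts gave it an adjusted p of 0.0507. No CXC chemokine is in the authors' deposited table of 201 genes lower in gKO, where every log2 change is at least 1 in size.

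**Figure D4:**
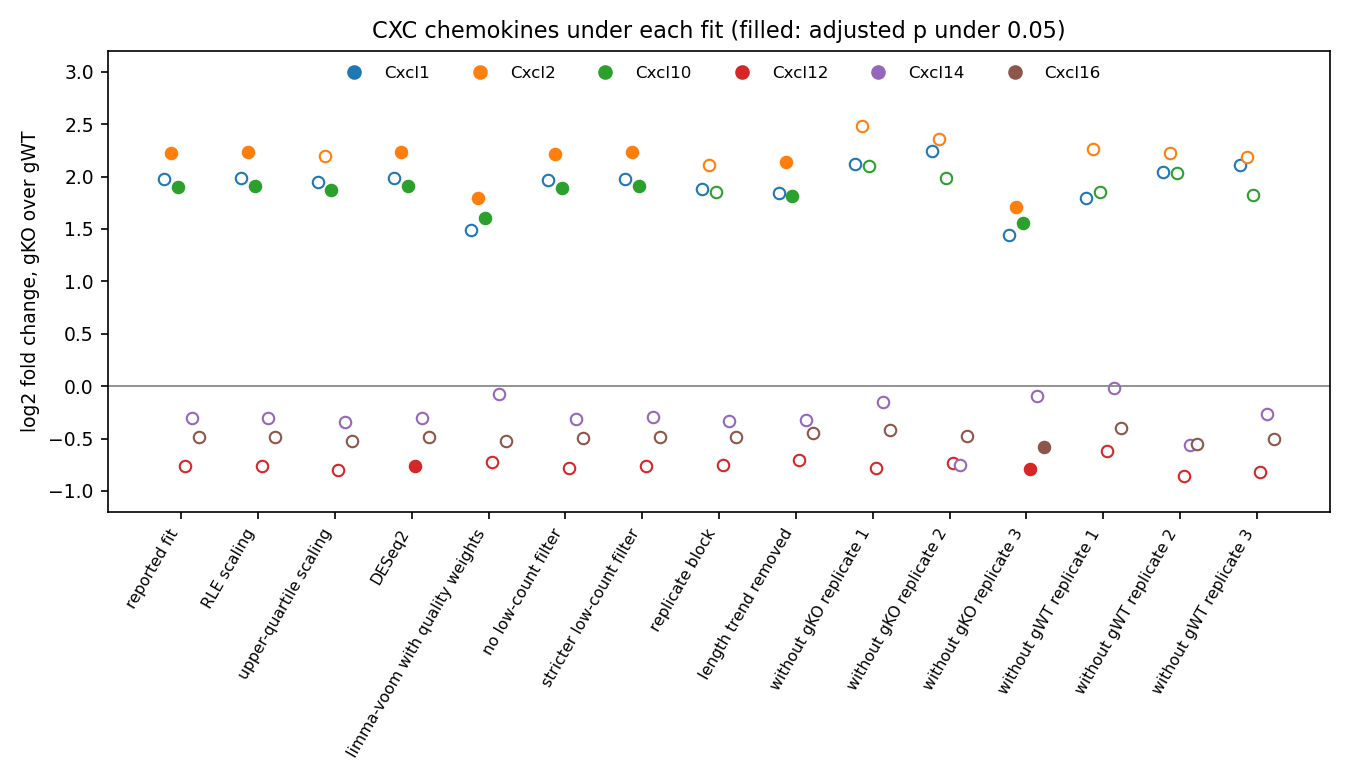
Log2 fold change of gKO over gWT for the 6 tested CXC chemokines under each fit (x axis, the fit; y axis, log2 fold change; filled points, adjusted p under 0.05). The signs are the same in every fit shown, Cxcl2 and Cxcl10 are open with the replicate block and without any library other than gKO replicate 3, Cxcl2 is open with upper-quartile scaling, and Cxcl12 and Cxcl16 are filled without that replicate.

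Levels were set against each other as CPM per kilobase of the median coding transcript, since longer transcripts give more fragments. In gWT, Cxcl16 led at 12.2 ± 1.27, followed by Cxcl12 at 10.2 ± 1.72 and Cxcl10 at 9.47 ± 1.48 (SD, n = 3 for each), and neighbours among these 3 did not differ beyond their spread. Cxcl2 came next at 3.66 ± 0.189 CPM per kilobase, clear of the genes on either side. Cxcl14 at 1.80 ± 0.683 and Cxcl1 at 1.10 ± 0.259 overlapped in their spread, and Cxcl9 was lowest at 0.277 ± 0.206. In gKO the order changed: Cxcl10 led at 35.5 ± 13.1 and Cxcl2 was next at 17.2 ± 8.92 CPM per kilobase, their spreads overlapping. These spreads are between libraries and do not compare genes within a library. In each gKO library Cxcl10 was above Cxcl2 in CPM, and its median coding transcript is shorter (1223.5 against 1484 bases). Cxcl16 at 8.69 ± 0.918 overlapped Cxcl2 in spread and lay above Cxcl12 at 5.97 ± 0.222. Cxcl12 overlapped Cxcl1 at 4.35 ± 2.37, which overlapped Cxcl14 at 1.46 ± 0.687, and Cxcl9 at 0.211 ± 0.366 was last. The coding transcripts of Cxcl12 run from 1878 to 5627 bases, with a median of 3132. Which of them were present was not measured, so the place of Cxcl12 in both groups depends on the use of the median.

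The other CXC ligands were mostly silent in these libraries. Of 8 listed, Cxcl5, Cxcl11, Cxcl15 and Cxcl17 had 0 counts in all libraries, and Cxcl3 had 2 counts in a single gWT library. Cxcl3, Cxcl5 and Cxcl15 sit in the chromosome 5 cluster that also holds Cxcl1 and Cxcl2. The platelet chemokine genes Pf4, which border macrophages also express, and Ppbp lie in the same cluster. Pf4 was at 45.7, 65.4 and 146 CPM in gKO replicates 1, 2 and 3 and at 52.4, 78.1 and 66.7 CPM in gWT, with replicate 3 again the highest. Its log2 fold change was 0.38 (SE 0.39; edgeR adjusted p = 0.790) with all libraries, and the sign turned, to -0.26 (SE 0.17), when gKO replicate 3 was left out. Ppbp had 0 to 16 counts per library (log2 fold change 0.06, SE 1.57). The B-cell attractant Cxcl13 was at 1.32, 4.05 and 6.15 CPM in gKO and 0.648, 1.49 and 2.05 CPM in gWT. The groups overlapped (log2 fold change 1.45 with SE 0.70, and an adjusted p of 0.510 by edgeR). Leaving out gKO replicate 3 gave a log2 fold change of 0.925 (SE 0.781).

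Of 8 receptors, 5 were tested and edgeR called 0 over all genes, with 2 at an unadjusted p under 0.05. By the same test 1460 of all 13403 tested genes had an unadjusted p under 0.05. That is the background for such counts in the lists below too. DESeq2 called Cxcr2 higher (adjusted p = 0.0198). Cxcr2, the neutrophil receptor of Cxcl1 and Cxcl2, was at 23.1, 17.6 and 15.1 CPM in gKO and 7.48, 10.7 and 8.67 CPM in gWT. All gKO libraries were above all gWT libraries, and replicate 3 was the lowest of them (log2 fold change 1.05, SE 0.25; adjusted p of 0.161 by edgeR, or 0.00798 without gKO replicate 3). The authors' deposited table lists Cxcr2 as higher, with a log2 fold change of 1.06. Cxcr4, the signalling receptor of Cxcl12, was at 18.7, 11.4 and 12.3 CPM in gKO against 10.1, 7.20 and 10.3 CPM in gWT, without overlap (log2 fold change 0.62, SE 0.28; edgeR adjusted p = 0.481). Ackr3, the receptor that scavenges Cxcl12, was at 12.1, 7.41 and 15.8 CPM in gKO against 18.7, 20.9 and 18.3 CPM in gWT, the groups not overlapping. Its log2 fold change was -0.71 (SE 0.29), with an adjusted p of 0.413 by edgeR and 0.0238 once gKO replicate 3 was left out. Cxcr3, the receptor of Cxcl9 and Cxcl10, had a log2 fold change of 0.29 (SE 0.46) and the chemokine-binding Ackr1 one of -0.29 (SE 1.27). These were 0.60 (SE 0.38) and -2.28 (SE 1.37) without gKO replicate 3, neither called. Cxcr1 was at 0 counts in all libraries, Cxcr5 had 5 counts in 1 gWT library, and Cxcr6 had 11 counts in 1 gKO library.

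The genes that lead to Cxcl1 and Cxcl2 transcription through NF-kB were taken as a list of 33, all tested. Of these, 5 rose and 0 fell, where 0.395% of all tested genes were called higher and 0.231% lower. Values were positive for 22 of the 33 (66.7%, median log2 fold change 0.06), against 50.9% (median 0.01) over all tested genes. Among those that rose were the cytokine Tnf (log2 fold change 2.08, SE 0.21; adjusted p of 0.00975 by edgeR), and Nfkbiz (1.79, SE 0.13), a nuclear cofactor required for some secondary NF-kB targets. The feedback inhibitors Nfkbid (1.73, SE 0.15) and Nfkbia (1.21, SE 0.13) rose with them. Leaving out gKO replicate 3, 9 of the list were higher and 1 lower, where 3.99% of all tested genes were higher and 3.82% lower. These shares over all genes, with and without that library, apply to the calls of every list below as well.

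Genes that carry interferon signals to Cxcl9 and Cxcl10 formed a separate list. Of 21 tested, edgeR called 0, with 4 at an unadjusted p under 0.05, 9 positive values and a median of -0.09. Usp18, an interferon-induced brake on the receptor, had the smallest p (log2 fold change -2.33 with SE 0.48; adjusted p of 0.104 by edgeR). Its level was lower in every gKO library than in any gWT library. Among 26 interferon-stimulated genes, edgeR called 0, with 3 at an unadjusted p under 0.05, 20 negative values and a median of -0.19. Over all tested genes, 1460 of 13403 had an unadjusted edgeR p under 0.05, so 3 of 26 is near the background. Leaving out gKO replicate 3, edgeR called 3 of the interferon route higher and 4 lower, and 0 of the stimulated genes higher and 3 lower. The medians of these lists were then -0.13 and -0.47.

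Chemokine mRNAs are short-lived because proteins that bind AU-rich elements recruit decay enzymes to them. The number of ATTTA pentamers in the 3′ UTR of the longest coding transcript was 7 in Cxcl1 and 11 in Cxcl2. It was 3 in Cxcl10, 3 in Cxcl9, 4 in Cxcl12, 2 in Cxcl16 and 0 in Cxcl14. These 3′ UTRs differ in length, from 592 bases in Cxcl1 to 5188 in Cxcl12. Per 100 bases the number was 1.18 in Cxcl1, 0.736 in Cxcl2 and 0.301 in Cxcl10. It was 0.122 in Cxcl9, 0.0771 in Cxcl12 and 0.141 in Cxcl16. The median number of pentamers over 19455 genes was 1, in 3′ UTRs with a median length of 975 bases, and 21.8% had 5 or more. Of 10 decay factors tested, edgeR called 0 and 5 had an unadjusted p under 0.05, with 9 positive values and a median log2 fold change of 0.39. Zfp36l1 (log2 fold change 0.69, edgeR adjusted p = 0.0516) and Zfp36 (0.70, edgeR adjusted p = 0.0647), which bind such elements, came nearest. Without gKO replicate 3, 5 of the 10 were higher. Among 7 tested proteases that cleave or shed chemokines, only Mmp9, a neutrophil granule protease that trims CXC ligands, rose (0.97, SE 0.16; edgeR adjusted p = 0.0427), and the list's median was -0.03.

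The mature miR-137-3p is shown with its seed, bases 2 to 8, in capitals, because a target transcript would carry the complement AGCAATA. The 3′ UTRs of the CXC chemokines were searched for these 7 bases, and each match is shown with its flanks, the site in capitals.
mmu-miR-137-3p: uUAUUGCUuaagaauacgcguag
Cxcl2, bases 445 to 451 of the 3′ UTR of the longer coding transcript: ttcagtgaaaaAGCAATAggtattgttct
Cxcl2, bases 602 to 608 of the same 3′ UTR: ctggaaagtccAGCAATAggtagcaggtc
Cxcl12, bases 1401 to 1407 of the 3′ UTR of the shortest coding transcript: ttatatgcactAGCAATAaaatgctaatt

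Of the longest coding transcripts of the 7 genes, only that of Cxcl2 held a site, and it held 2 in a 3′ UTR of 1494 bases. Over all 19455 genes searched, 9.93% held at least 1. The shorter coding transcript of Cxcl2 lacked the sites, as did the 2 longer coding transcripts of Cxcl12. The deposited counts are per gene, so which transcripts were present was not measured. Cxcl1 and Cxcl10 held 0 sites in any coding transcript, and a match does not show that the microRNA binds there. Other kinds of site were not searched, and the part of these sites in the Cxcl2 level was not tested.

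CC chemokines, the sister family, gave context for the induced members: of 11 tested, 2 rose and 0 fell, with 10 positive values and a median of 0.83 on the log2 scale, while 5 rose (median 0.57) without gKO replicate 3. With all libraries the called genes were the macrophage chemokines Ccl7 (log2 fold change 1.86) and Ccl3 (1.79). The likeness of profiles was measured as the root mean square difference of log2 CPM over the 6 libraries (with a prior count of 2) after centring each gene, among tested genes outside the 7. By it, the closest gene to Cxcl10 was Ccl7 (0.05), followed by the small GTPase gene Gem (0.14) and Ccl3 (0.16). Cxcl2 was closest to Ccl7 (0.20), Ccl2 (0.21) and Ccl3 (0.24), and Cxcl1 to Ccl3 (0.19), the stress cytokine gene Gdf15 (0.21) and Ccl2 (0.21). The closest genes to Cxcl12 were Btbd3 (0.05), the interleukin-17 receptor subunit gene Il17rc (0.07) and Arhgap29 (0.08). For Cxcl16 they were the ion transporter gene Slc12a2 (0.07), Slc35e4 (0.07) and the filament gene Vim (0.08), and for Cxcl14 they were Slc9a5 (0.11), the synaptic scaffold gene Homer1 (0.15) and the Wnt agonist gene Rspo1 (0.15).

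Transcripts of other cells moved with these results, and in bulk RNA fewer cells of a type and less RNA per cell cannot be told apart. Endothelial markers, from cells that make Cxcl12, summed to 493 to 689 CPM in gKO and 1088 to 1420 CPM in gWT. Fold changes were negative for all 12 (median -0.96, 1 called lower, or 11 without gKO replicate 3). Mural markers summed to 104 to 164 CPM in gKO and 263 to 371 CPM in gWT (9 of 10 negative, median -1.27, 1 called lower, or 6 without that library), and meningeal fibroblast markers to 621 to 678 against 1167 to 1550 CPM (12 of 12 negative, median -1.13, 4 called lower, or 6 without it). Cxcl12 was at 2.95, 2.60 and 3.87 per 100 CPM of endothelial markers in gKO replicates 1, 2 and 3 and at 2.67, 2.56 and 2.69 in gWT. Relative to fibroblast markers it was at 2.98, 2.64 and 3.07 against 2.45, 2.39 and 2.44. Relative to mural markers it was at 11.7, 11.1 and 18.4 in gKO replicates 1, 2 and 3 and at 10.2, 10.5 and 11.2 in gWT. The fibroblast ratio was higher in every gKO library than in any gWT library, and the endothelial and mural ratios overlapped between groups. What these ratios mean for the lower Cxcl12 level was not tested. Astrocyte markers summed to 273 to 312 CPM in gKO and 375 to 416 CPM in gWT, with 10 of 10 negative and 0 called, or 2 called lower without gKO replicate 3.

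Neutrophil markers, from cells that carry Cxcr2 and can make Cxcl2, summed to 913 to 1335 CPM in gKO and 582 to 689 CPM in gWT. Fold changes were positive for all 11 tested (median 1.14, 2 called higher, or 7 without gKO replicate 3), and the sum was highest in gKO replicate 3, as Cxcl1, Cxcl2 and Cxcl10 were. Not every marker peaked there. In gKO replicates 1, 2 and 3 Csf3r was at 363, 348 and 277 CPM and Mmp9 at 58.7, 68.3 and 54.6 CPM. Ngp was at 137.5, 131.7 and 248.3 CPM. Deviations in gKO replicate 3 also fell with transcript length, and the part of this in these values was not tested. Cxcl2 was at 1.65, 2.24 and 3.03 per 100 CPM of these markers in gKO replicates 1, 2 and 3 and at 0.982, 0.788 and 0.758 in gWT, all gKO values above all gWT values. Csf3r, the most abundant marker of this list, had a log2 fold change of 0.01. With Csf3r left out of the sum, a choice made after seeing the data, the ratio was 2.7, 3.61 and 3.83 in gKO against 2.02, 1.55 and 1.53 in gWT. Cxcr2 and Mmp9 are members of this list too. Cxcl16 was at 0.0496, 0.0567 and 0.0614 per 100 CPM of microglial markers in gKO and at 0.0921, 0.0711 and 0.0749 in gWT. Monocyte markers summed to 565 to 817 CPM in gKO and 843 to 1065 CPM in gWT, although 6 of 8 had positive fold changes and 2 were called higher; Fn1, the most abundant, is in the fibroblast list too. Border macrophage markers summed to 2515 to 3670 CPM in gKO and 3303 to 3412 CPM in gWT. Oligodendrocyte markers were at 400 to 465 against 361 to 392 CPM, T and NK cell markers at 8.36 to 9.54 against 8.80 to 9.66 CPM with 2 of them at 0 throughout, and neuronal markers at 11.5 to 17.9 against 11.3 to 18.6 CPM.

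Genes that respond within minutes to cell handling or stimulation also moved with the induced chemokines. Of 19 tested, 11 rose and 0 fell (17 and 0 without gKO replicate 3), with a median log2 value of 1.03, the smallest p values belonging to the nuclear receptor Nr4a1 (1.66) and the stress factor Atf3 (1.42). Zfp36 is also in this list. Their sum was 24606 to 25976 CPM in gKO and 14491 to 16192 CPM in gWT. The part of neutrophil content, vascular content and handling in the chemokine values was not tested.

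**Figure D5:**
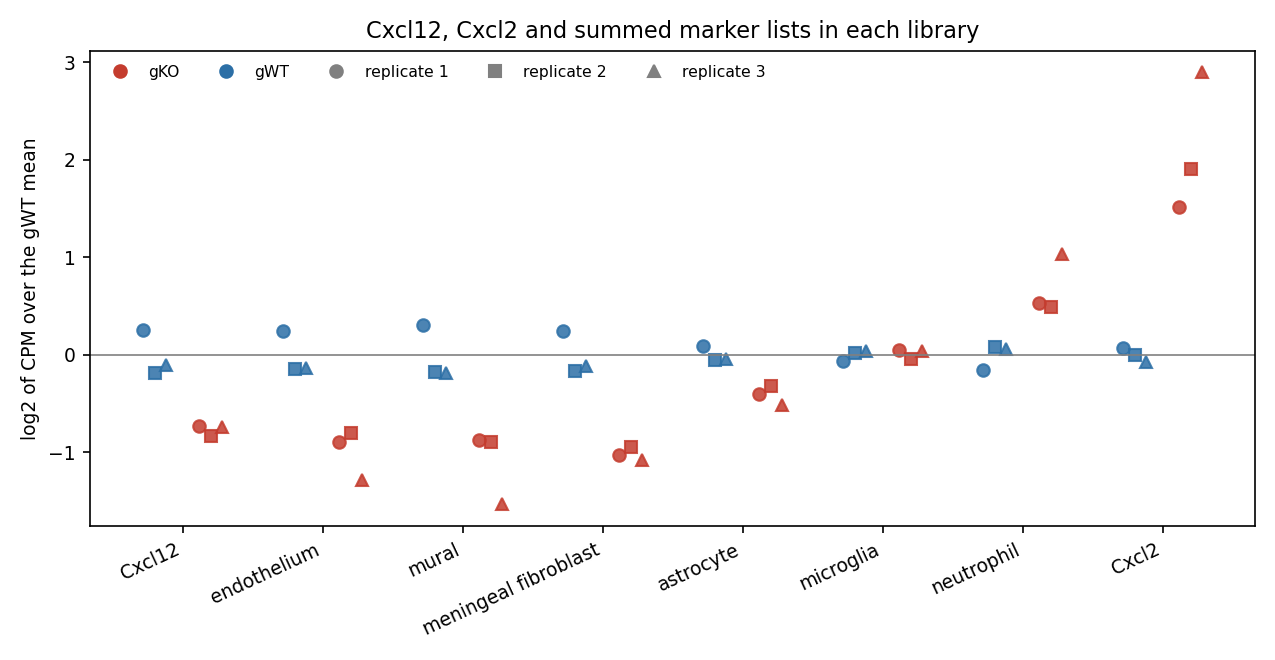
Cxcl12, Cxcl2 and summed marker lists in each library, as log2 of CPM over the gWT mean (y axis; x axis, gene or marker list; shape, replicate number; blue, gWT; red, gKO). Cxcl12 lies below wild type in gKO beside the endothelial, mural and fibroblast sums, the microglial sum is near 0 in all libraries, and Cxcl2 lies above wild type beside the neutrophil sum, most of all in gKO replicate 3.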

How the data were processed

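Per the file headers and values, the authors deposited expected counts, not normalized, for each gene symbol in 6 libraries. The authors' deposited lists of changed genes hold, per the file headers, a mean normalized count as a signal and the log2 fold change. The scores deposited beside them are its standard error and a statistic, and the deposited p-values are raw and adjusted. GRCm38, mm10, RSEM, STAR 2.7.9a and DESeq2 are named in the submitters' processing notes. No source used here gives the annotation or strand setting.

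Rounded expected counts went into edgeR 4.0.16 (R 4.3.3): TMM scaling, its default filter on low counts, and a robust quasi-likelihood test on genotype alone, with Benjamini-Hochberg adjustment over 13403 genes at 0.05. Levels are CPM of the unrounded counts over TMM-scaled library sizes. The SE was taken as the unsigned log2 change over root F. The test was checked on simulated counts. Libraries held 14603884 to 17652976 counts, and replicates differed by more than sampling noise (chi-square per degree of freedom 6.59 to 13.4 between other replicates and 106 to 107 for pairs with gKO replicate 3). Symbols were matched to GENCODE M21 (GRCm38) for positions and lengths (23365 by name, 669 by synonym, 377 unmatched). Promoter and microRNA sequences are from RefSeq GRCm38.p6, and promoters of 6 of the 7 members were matched.

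The members, gene lists and tests were chosen with earlier results of these data known. The text names the 7 members, other CXC ligands and receptors, up to 4 called genes of each pathway list or the 2 with the smallest p, the 2 most abundant markers of a list where given, and the 3 genes nearest in profile to each member. The alternatives tried were DESeq2 1.42.0, limma-voom 3.58.1 with quality weights, scaling by RLE or the upper quartile, no or a stricter filter, the replicate number as a block, removal of each library's transcript-length trend, and each library left out. Some named genes that this rule selects are not reported here.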

Additional observations from a re-analysis of the deposited data

How the results depend on the processing

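The signs of Cxcl1, Cxcl2, Cxcl10, Cxcl12, Cxcl14 and Cxcl16 were the same in all 14 alternative fits. The calls were not. Across all genes, 84 were called by edgeR, 53 higher and 31 lower. The count was 414 with DESeq2 (179 higher and 235 lower), 413 with limma-voom and quality weights, 177 with the length trend removed, and 0 to 1079 with 1 library left out. The members called, 2 with all libraries, numbered 1 with upper-quartile scaling, where Cxcl2 had a log2 fold change of 2.20 (edgeR adjusted p = 0.0535), and 0 to 4 with 1 library left out: 4 without gKO replicate 3 and 0 without any other library. With 1 library left out, the log2 fold change was 1.71 to 2.48 for Cxcl2, 1.56 to 2.10 for Cxcl10, -0.86 to -0.62 for Cxcl12 and -0.58 to -0.40 for Cxcl16. Each fit that dropped a gWT library left edgeR with 0 calls, while 729 to 921 genes had an unadjusted p under 0.05. Cxcl2 and Cxcl10 stayed called with RLE scaling, DESeq2, limma-voom and no or a stricter filter. With the length trend removed both were called, with an edgeR adjusted p of 0.0142 for Cxcl2 and 0.00706 for Cxcl10. DESeq2 called Cxcl12 as well (log2 fold change -0.77, adjusted p = 0.0300). The cause of these differences was not tested.

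Same-numbered gKO and gWT libraries did not deviate together across genes (correlations 0.05, -0.05 and 0.02). Deviations from means of only 3 libraries cannot show whether the numbers pair them. With the replicate block, edgeR called 18 genes and 0 members, with log2 fold changes of 2.11 for Cxcl2 (edgeR adjusted p = 0.0777) and 1.85 for Cxcl10 (0.0618). Cxcl9 failed the default filter with all libraries, and its gKO minus gWT difference in mean level of -0.19 CPM ranged from -0.80 to 0.15 CPM with 1 library left out. Where it could be fitted, its log2 fold change took either sign, with -0.39 by DESeq2 and 0.20 without gKO replicate 3 (SE 1.74 and 1.39). It had no value under limma-voom, the block, the stricter filter or the length correction. Low counts limit Cxcl1, Cxcl9 and Cxcl14, whose errors were the widest among the members. For Cxcl9 the spread between libraries, with 32, 0 and 0 counts in gKO, is a limit too.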
